A study of Mus musculus with 6 samples.

Results

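Homeostatic microglia genes are those that mark the microglia of the resting brain. The 10 genes described here are P2ry12, P2ry13, Tmem119, Cx3cr1, Sall1, Siglech, Gpr34, Olfml3, Slc2a5 and Fcrls. They were found by symbol, each in 1 row, among the 55487 genes of the count and TPM tables. The cells were Ts1Cje and wild-type primitive macrophages, 3 libraries of each genotype, grown from embryonic stem cells of Ts1Cje or wild-type mice. Ts1Cje mice carry an extra copy of the distal part of chromosome 16 and model Down syndrome. All 6 libraries were made after 12 days of induction with M-CSF, IL-3, SCF, VEGF, activin A, BMP-4 and FGF2. The question behind the series is the lower number of microglia in embryos with the Ts1Cje genotype. The labels number the libraries of each genotype as lots 1 to 3, called replicates here. Whether a lot is its own stem cell line or its own round of differentiation is not in the labels. P-values therefore measure only the spread between these libraries, which may be technical.

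Microglia descend from primitive macrophages of the yolk sac that enter the brain early in development. Their homeostatic genes are switched on largely after that entry, under signals of the brain such as TGF-beta and the ligands of the M-CSF receptor, and fade when microglia are put in culture. The set joins receptors that sense nucleotides, lipids and chemokines, proteins of the cell surface and matrix, a sugar transporter and the transcription factor Sall1, which is needed for microglia to keep their identity. None of the 10 lies on chromosome 16. P2ry12, P2ry13, Olfml3 and Fcrls are on chromosome 3, Slc2a5 on 4, Tmem119 on 5, Siglech on 7, Sall1 on 8, Cx3cr1 on 9 and Gpr34 on X.

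P2ry12 and P2ry13 are neighbours on the minus strand of chromosome 3, at chr3:59216272-59262871 and chr3:59207892-59210882 in mm10. Both lie in the span of Med12l, a gene on the opposite strand whose exons overlap 9 bp of P2ry12 exons and 0 bp of P2ry13 exons. Med12l had 87 to 220 counts in Ts1Cje and 141 to 473 counts in wild-type. Without a stated strand setting, reads in the 9 bp of shared exon cannot be told apart. The same holds for any unspliced Med12l RNA over exons of P2ry12 or P2ry13. Fcrls lies at chr3:87250758-87263738 and Cx3cr1 at chr9:119901616-120069879, both on the minus strand. An antisense gene, Gm33858, shares 78 bp of exon with Cx3cr1 and had 0 to 26 counts per library. The start regions of these 4 genes are shown because P2ry12 and P2ry13 varied together between libraries, as did Fcrls and Cx3cr1. Each runs from 250 bases before to 50 after the RefSeq start (GRCm38.p6), 5′ to 3′ on the gene's strand, at chr3:59262936-59263235, chr3:59210833-59211132, chr3:87263475-87263774 and chr9:120068247-120068546. Capitals mark GAGGAA and GGAAGT on either strand, core letters bound by PU.1 (encoded by Spi1) and related ETS factors. These motifs share letters and can overlap.

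P2ry12: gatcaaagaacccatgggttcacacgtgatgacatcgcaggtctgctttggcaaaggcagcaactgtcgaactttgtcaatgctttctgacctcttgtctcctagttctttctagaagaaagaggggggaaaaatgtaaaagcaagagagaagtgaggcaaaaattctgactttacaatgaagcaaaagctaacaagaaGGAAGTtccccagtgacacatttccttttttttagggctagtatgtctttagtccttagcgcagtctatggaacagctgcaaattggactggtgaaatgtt

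P2ry13: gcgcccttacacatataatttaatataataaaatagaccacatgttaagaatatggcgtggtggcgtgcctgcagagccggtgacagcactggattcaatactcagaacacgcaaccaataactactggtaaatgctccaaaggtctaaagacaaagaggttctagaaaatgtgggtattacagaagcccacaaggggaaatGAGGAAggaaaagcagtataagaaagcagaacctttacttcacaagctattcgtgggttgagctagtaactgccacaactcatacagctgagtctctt

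Fcrls: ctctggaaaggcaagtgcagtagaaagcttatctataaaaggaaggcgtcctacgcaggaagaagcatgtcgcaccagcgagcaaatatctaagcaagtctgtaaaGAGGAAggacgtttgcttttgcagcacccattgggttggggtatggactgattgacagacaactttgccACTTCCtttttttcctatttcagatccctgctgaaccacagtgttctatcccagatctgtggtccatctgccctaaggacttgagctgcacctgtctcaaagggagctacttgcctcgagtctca

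Cx3cr1: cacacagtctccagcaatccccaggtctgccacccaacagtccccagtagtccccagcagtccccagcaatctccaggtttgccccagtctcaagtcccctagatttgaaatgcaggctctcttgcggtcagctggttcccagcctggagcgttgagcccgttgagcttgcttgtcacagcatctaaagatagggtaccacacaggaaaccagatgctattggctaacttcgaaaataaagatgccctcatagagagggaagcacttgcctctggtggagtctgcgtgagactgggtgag

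P2ry12 has 1 GGAAGT, P2ry13 has 1 GAGGAA, Fcrls has 1 of each and Cx3cr1 has 0 of both in these windows. Of the 10 genes 8 had an entry, with 10 windows in all because Sall1 has several starts, and 5 of the 10 windows held at least 1 of the motifs. Among all 32851 windows of that set, 28.3% held GAGGAA, 23.8% held GGAAGT and 43.4% held either, so the share among the 10 windows was near that of windows in general.

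The cultures carried the RNA of macrophages. Total counts were 25484294 to 32658148 per library and 17586 to 18935 genes had counts. All 15 core macrophage genes examined passed the filter on low counts, with Csf1r, the M-CSF receptor, at 538 to 1232 TPM. All 9 neutrophil and all 8 pluripotent markers stayed under 1 CPM in every library. Some markers of other cell types were present. Summed levels were 37.2 to 71.0 CPM in Ts1Cje and 16.8 to 69.9 CPM in wild-type for 8 endothelial markers, with Cldn5 and Emcn at 0. For 8 epithelial markers they were 15.4 to 18.1 CPM in Ts1Cje and 2.05 to 37.5 CPM in wild-type, highest in wild-type replicate 1, with Alb at 0. For 10 neural markers they were 72.1 to 125 CPM in Ts1Cje and 57.6 to 119 CPM in wild-type, nearly all from Mbp and Nes, with Olig2 and Sox1 at 0. For 8 erythroid markers they were 36.4 to 65.9 CPM in Ts1Cje and 40.4 to 77.9 CPM in wild-type, nearly all from Epor. Their part in the results below was not tested. Wild-type replicate 1 stood apart, with a score of 63.3 on the first principal component (49.6% of the variance) against -28.5 to 13.5 for the other 5. CPM below are counts scaled to a common library size with TMM factors. The same library had the lowest summed level of 8 cell cycle genes, at 295 CPM, against 598 to 1009 CPM in the other 5, with Mki67, a marker of dividing cells, at 16.5 CPM against 54.5 to 115 CPM.

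The homeostatic genes spanned levels from clearly present to none. On the TPM scale, which divides by exon length, the mean of the 6 libraries was 106 for Fcrls, 74.0 for Gpr34, 49.2 for P2ry13, 32.1 for P2ry12, 18.2 for Cx3cr1, 3.94 for Olfml3, 2.28 for Tmem119, 0.169 for Slc2a5, 0.0960 for Sall1 and 0 for Siglech. Over the libraries the range of each gene overlapped that of the next in this order, except that Tmem119 (at least 1.70 TPM) lay above Slc2a5 (at most 0.528 TPM) throughout. Within libraries, P2ry13 was above P2ry12 and Cx3cr1 above Olfml3 in 6 of 6, whereas the order of Fcrls and Gpr34 and that of Olfml3 and Tmem119 varied between libraries. By medians Tmem119, at 1.94 TPM, stood above Olfml3, at 1.61 TPM. P2ry13 exceeded P2ry12 by 1.30 to 2.25 times in TPM. Fcrls exceeded Cx3cr1 in 6 of 6, by 4.42 to 10.9 times in TPM.

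**Figure D1:**
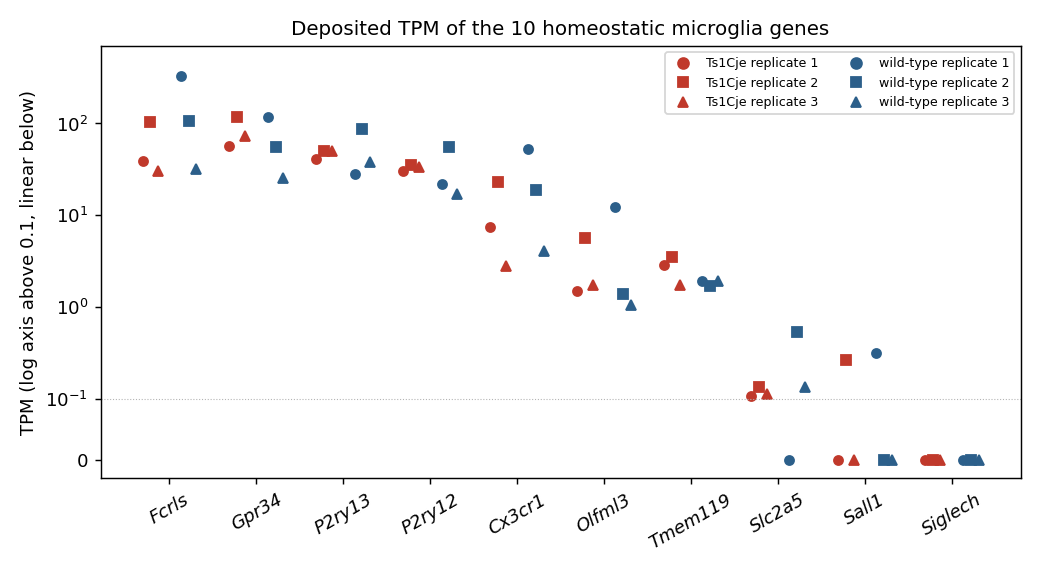
Deposited TPM of each of the 10 genes (log axis above 0.1 TPM, linear below), 1 point per library, with Ts1Cje in red left of wild-type in blue and the marker shape giving the replicate. Levels fall from 30.5 to 328 TPM for Fcrls to 0 in every library for Siglech, and the genotypes overlap for every gene that has counts.

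**Figure D2:**
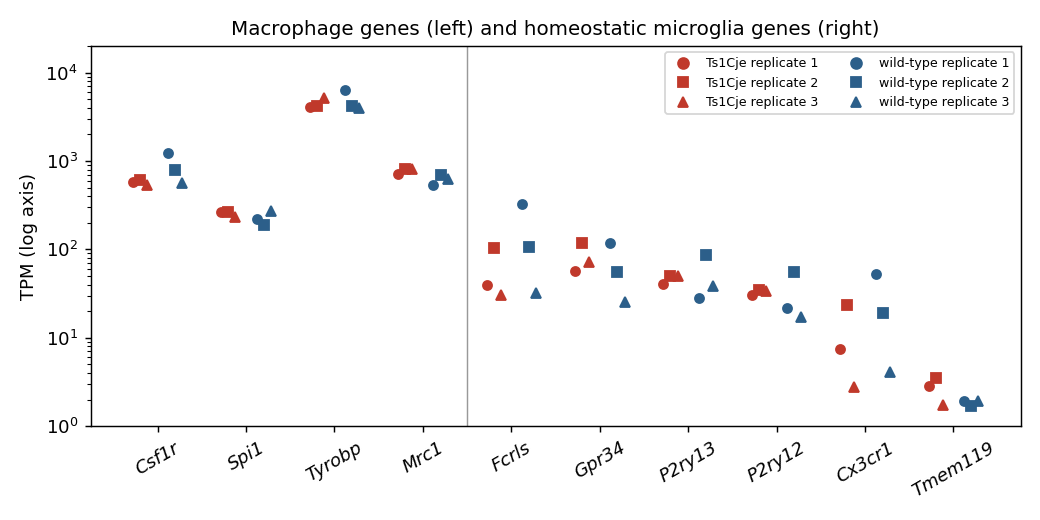
TPM (log axis) of 4 macrophage genes, left of the line, and 6 of the homeostatic microglia genes, right of it, 1 point per library, Ts1Cje in red left of wild-type in blue. Csf1r lies at 538 TPM or above in every library, while the highest value among the homeostatic genes is Fcrls in wild-type replicate 1, at 328 TPM. Spi1, also left of the line, lies below that value, at 186 to 275 TPM.

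Between the genotypes 0 of the 10 genes passed. In the edgeR quasi-likelihood fit over 13821 genes, 7 of the 10 passed the filter on low counts and were tested, 3 with a positive and 4 with a negative log2 fold change (Ts1Cje over wild-type). Their median was -0.11, beside -0.01 over all genes tested, of which 50.8% were negative. The fits without wild-type replicate 3 and without Ts1Cje replicate 1 each tested 8 of the 10 genes, not the same 7. Their medians were -0.61 and 0.09 in that order, so gene set and library changed together. Of all genes tested 0.00724%, 1 gene, passed the adjusted threshold of 0.05 and 5.79% had an unadjusted p under 0.05, against 0 of the 7 by either count. DESeq2 called 0.268% of the genes it gave an adjusted p and 0 of the 10, giving no p for Olfml3, which it marks as holding an outlying count. For 0 of the 7 the genotypes were fully separated, where 12.1% of all genes tested had groups that did not overlap, 6.37% with Ts1Cje above and 5.72% with Ts1Cje below. Because these are whole cultures, fewer cells that express a gene and less RNA per cell cannot be told apart.

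**Figure D3:**
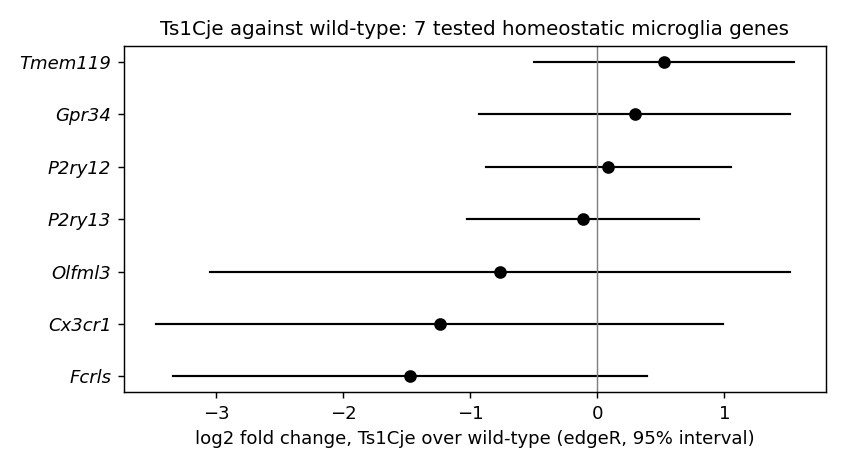
Log2 fold change, Ts1Cje over wild-type, of the 7 tested genes (points) with the 95% interval of the edgeR fit (lines). Every interval spans 0, and those of Olfml3 and Cx3cr1 are wider than those of P2ry12 and P2ry13.

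P2ry12 encodes the ADP receptor with which microglia extend processes toward injury, and platelets carry it too. Its counts were 844, 777 and 904 in Ts1Cje replicates 1 to 3 and 469, 1246 and 378 in wild-type replicates 1 to 3. That is 24.9, 28.9 and 30.8 CPM in Ts1Cje and 19.0, 46.5 and 14.2 CPM in wild-type. The Ts1Cje libraries lay close together and inside the range of the wild-type libraries, of which replicate 2 was the highest of all 6. Means were 28.2 ± 2.99 CPM in Ts1Cje and 26.6 ± 17.5 CPM in wild-type (SD, n = 3 each). The log2 fold change was 0.09 ± 0.41 (SE; adjusted p = 0.974, edgeR), with a 95% interval of -0.88 to 1.05, or 0.544-fold to 2.07-fold. Leaving out wild-type replicate 1, 2 or 3 gave -0.12, 0.76 and -0.21 in that order.

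P2ry13, a second ADP receptor of myeloid cells, followed its neighbour. It had 33.3, 41.1 and 45.9 CPM in Ts1Cje replicates 1 to 3 and 24.5, 73.5 and 31.7 CPM in wild-type replicates 1 to 3. Again wild-type replicate 2 was highest and the Ts1Cje libraries lay inside the wild-type range. The log2 fold change was -0.11 ± 0.39 (SE; adjusted p = 0.964, edgeR), with a 95% interval of -1.02 to 0.80. Leaving out wild-type replicate 1, 2 or 3 gave -0.40, 0.50 and -0.29 in that order. Of 9 megakaryocyte and platelet markers 7 stayed under 1 CPM in every library, Gp1bb was at 0, and Itga2b reached 1.65 CPM. Pf4, a platelet chemokine, is also among the border and tissue macrophage genes examined below, so its level does not tell platelets from macrophages. It accounted for 144, 43.6 and 75.9 CPM in Ts1Cje and 34.0, 185 and 82.0 CPM in wild-type of the platelet list's summed level. That sum was 146, 44.8 and 77.1 CPM in Ts1Cje replicates 1 to 3 and 35.3, 187 and 86.1 CPM in wild-type replicates 1 to 3. The part of that list in the levels of P2ry12 was not tested.

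Gpr34, a receptor for lysophosphatidylserine, a lipid released by stressed cells, was the highest of the 10 by TPM in every Ts1Cje library. It had 38.0, 78.9 and 54.6 CPM in Ts1Cje replicates 1 to 3 and 83.6, 38.7 and 17.5 CPM in wild-type replicates 1 to 3. Ts1Cje replicate 2 and wild-type replicate 1 were the high libraries and wild-type replicate 3 the lowest. Its log2 fold change was 0.29 ± 0.53 (SE; adjusted p = 0.923, edgeR). It was 1.02 without wild-type replicate 1, -0.09 without wild-type replicate 3 and -0.01 without Ts1Cje replicate 2. Gpr34 lies in the span of Cask on the opposite strand, with 0 bp of shared exons.

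Cx3cr1 encodes the receptor for fractalkine, a chemokine that neurons display. Counts were 363, 911 and 133 in Ts1Cje replicates 1 to 3 and 2020, 761 and 161 in wild-type replicates 1 to 3. That is 10.7, 33.9 and 4.53 CPM in Ts1Cje and 81.6, 28.4 and 6.04 CPM in wild-type. Levels differed 7.48-fold between the Ts1Cje libraries and 13.5-fold between the wild-type libraries, and the genotypes overlapped. Means were 16.4 ± 15.5 CPM in Ts1Cje and 38.7 ± 38.8 CPM in wild-type (SD, n = 3 each). The log2 fold change was -1.24 ± 0.96 (SE; adjusted p = 0.828, edgeR), with a 95% interval of -3.47 to 0.99. The value rests on single libraries, being -0.08 when wild-type replicate 1 was left out and -2.33 when Ts1Cje replicate 2 was. Cx3cl1, which encodes fractalkine itself, was at 2.82 ± 1.69 CPM in Ts1Cje and 1.51 ± 0.956 CPM in wild-type (SD, n = 3 each). Of 17 other chemokine receptors 7 were tested and 0 passed edgeR. Ccr1, a receptor for inflammatory chemokines, had 0.60 ± 0.38 (log2 fold change, SE), which was 0.28 without Ts1Cje replicate 1 and 0.94 without Ts1Cje replicate 3. Ccr2, the receptor that marks inflammatory monocytes, was under 0.5 CPM in every library, at 0, 0.223 and 0 CPM in Ts1Cje and 0.404, 0.448 and 0 CPM in wild-type.

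Fcrls encodes an Fc receptor-like scavenger protein known from mouse microglia. It had the largest fold change of the 7. Counts were 1003, 2087 and 752 in Ts1Cje replicates 1 to 3 and 6470, 2195 and 654 in wild-type replicates 1 to 3. That is 29.6, 77.6 and 25.6 CPM in Ts1Cje and 261, 82.0 and 24.6 CPM in wild-type. Wild-type replicate 1 was far above the other 5 libraries, and wild-type replicate 3 was the lowest of the 6. Means were 44.3 ± 28.9 CPM in Ts1Cje and 123 ± 124 CPM in wild-type (SD, n = 3 each). The log2 fold change was -1.47 ± 0.80 (SE; unadjusted p = 0.106, adjusted p = 0.792, edgeR), with a 95% interval of -3.33 to 0.39. It was -0.27 without wild-type replicate 1 and -2.15 without Ts1Cje replicate 2.

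Fcrl1, its relative, was looked up after its values were seen, and had 15.3, 31.4 and 43.8 CPM in Ts1Cje replicates 1 to 3 and 85.1, 26.5 and 19.2 CPM in wild-type replicates 1 to 3. It too was highest in wild-type replicate 1, with a log2 fold change of -0.53 ± 0.60 (SE; adjusted p = 0.871, edgeR) that was 0.39 without that library.

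Olfml3, a secreted protein with an olfactomedin domain, was highest in a pair of libraries. It had 2.96, 11.3 and 3.85 CPM in Ts1Cje replicates 1 to 3 and 25.9, 2.84 and 2.1 CPM in wild-type replicates 1 to 3. Its log2 fold change was -0.77 ± 0.98 (SE; adjusted p = 0.890, edgeR) and turned to 1.28 without wild-type replicate 1. Gpr34 too was highest in wild-type replicate 1 and Ts1Cje replicate 2, the same pair. On log2 CPM over the 6 libraries, Pearson's r of Olfml3 was 0.85 with Gpr34, 0.85 with Fcrls and 0.80 with Cx3cr1. It was -0.13 with P2ry12 and -0.47 with P2ry13. Olfml3 is also known as a matrix protein outside the brain, and 10 mesenchymal markers had their highest summed levels in the same pair of libraries. The sum was 13.6, 81.4 and 17.5 CPM in Ts1Cje replicates 1 to 3 and 47.3, 19.5 and 19.9 CPM in wild-type replicates 1 to 3. Of the 10 markers 6 were tested and 0 passed edgeR. Their median log2 fold change was 0.74, with 4 positive, and -0.96 when Ts1Cje replicate 2 was left out. Col1a1, a collagen chain, was at 32.4 CPM in Ts1Cje replicate 2 and at 2.93 to 8.08 CPM in the other 5 libraries. Dcn, a matrix proteoglycan, had a log2 fold change of 1.24 ± 0.60 (SE; adjusted p = 0.792, edgeR), and 0.80 without Ts1Cje replicate 2. No marker of the list was at 0 in all libraries. The part of such cells in the level of Olfml3 was not tested.

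Tmem119, a membrane protein used to mark microglia, was low and steady. Counts were 72, 71 and 42 in Ts1Cje replicates 1 to 3 and 38, 35 and 39 in wild-type replicates 1 to 3, or 2.13, 2.64 and 1.43 CPM in Ts1Cje and 1.54, 1.31 and 1.46 CPM in wild-type. Ts1Cje replicates 1 and 2 were higher than all wild-type libraries, and Ts1Cje replicate 3 lay among these. Its log2 fold change was 0.52 ± 0.44 (SE; adjusted p = 0.835, edgeR), and it stayed positive, at 0.31 to 0.72, with each library left out in turn.

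The remaining genes did not reach the filter. Sall1 had 0, 12 and 0 counts in Ts1Cje replicates 1 to 3 and 14, 0 and 0 counts in wild-type replicates 1 to 3. Its counts thus came from the same pair of libraries in which Olfml3 and the mesenchymal sum were highest. The 4 libraries at 0 allow a level of up to 0.0887 to 0.113 CPM (3 counts per library, counting error only). Sall4, a relative of Sall1 active in stem cells, was at 0.514 ± 0.274 CPM in Ts1Cje and 0.241 ± 0.354 CPM in wild-type (SD, n = 3 each). Slc2a5, the fructose transporter GLUT5, had 4, 4 and 4 counts in Ts1Cje replicates 1 to 3 and 0, 16 and 4 counts in wild-type replicates 1 to 3. The exact two-sided permutation test on CPM gave p = 1 for Sall1 and p = 0.7 for Slc2a5, where 3 against 3 cannot go below 0.1. Siglech, a receptor of microglia and plasmacytoid dendritic cells that signals through Tyrobp, had 0 counts in 6 of 6 libraries, which allows at most 0.0887 to 0.121 CPM per library. Of 10 markers of plasmacytoid dendritic cells 5 stayed under 1 CPM in every library, with Spib, Klk1 and Ly6d likewise at 0, but 5 passed the filter. The 10 summed to 505 to 623 CPM in Ts1Cje and 295 to 559 CPM in wild-type. Which cells this RNA came from was not tested.

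Relatives and partners of these low genes were present. Slc2a1, the widespread glucose transporter, was at 57.5 ± 10.4 CPM in Ts1Cje and 76.2 ± 36.5 CPM in wild-type (SD, n = 3 each), and of 12 genes of sugar transport and fructose use 8 were tested and 0 passed. Tyrobp, the adaptor used by Siglech, was at 1009 ± 204 CPM in Ts1Cje and 1080 ± 326 CPM in wild-type. Of 15 Siglec, adaptor and Fc receptor-like genes 11 were tested, with 5 positive and 6 negative values and 2 at an unadjusted p under 0.05, beside 5.79% of all genes. Those were Cd33, an inhibitory Siglec, at 1.44 ± 0.32 and Cd22, another inhibitory Siglec, at 1.64 ± 0.54 (log2 fold change, SE; adjusted p = 0.792 for both, edgeR). For both, the lowest Ts1Cje library exceeded the highest wild-type library, as for 6.37% of all genes tested. Fcrlb, named after its values were seen, was separated the other way, as were 5.72% of all genes tested. DESeq2 called 1 gene of the list, Cd33 (adjusted p = 0.0137), beside 0.268% of all genes. Of 19 genes of nucleotide sensing 11 were tested, 6 positive and 5 negative, and 0 passed. P2ry6, a UDP receptor linked to phagocytosis, stood above P2ry12 by TPM in every library, at 154 ± 22.7 TPM in Ts1Cje and 151 ± 5.07 TPM in wild-type (SD, n = 3 each). P2ry1, an ADP receptor, had 1.24 ± 0.58 and Entpd1, which breaks down extracellular ATP and ADP, -0.26 ± 0.14 (log2 fold change, SE; adjusted p = 0.792 for both, edgeR). The value of P2ry1 was 0.80 without Ts1Cje replicate 2.

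Most of the tested genes varied more between libraries of the same genotype than the typical gene did. The within-genotype SD of log2 CPM was 1.68 for Cx3cr1, 1.56 for Olfml3, 1.35 for Fcrls, 0.88 for Gpr34, 0.64 for P2ry12, 0.61 for P2ry13 and 0.32 for Tmem119. The median over all 13821 genes was 0.34, and 6 of the 7 lay above it. Cx3cr1 stood at percentile 97.4 of all genes tested, Fcrls at 94.0 and Tmem119 at 46.7. The spread was wider among wild-type than among Ts1Cje libraries for 6 of the 7, Tmem119 being the exception. For P2ry12 the highest library exceeded the lowest by 1.23-fold in Ts1Cje and 3.28-fold in wild-type, and for Fcrls by 3.03-fold in Ts1Cje and 10.6-fold in wild-type. The difference in spread was not tested.

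**Figure D4:**
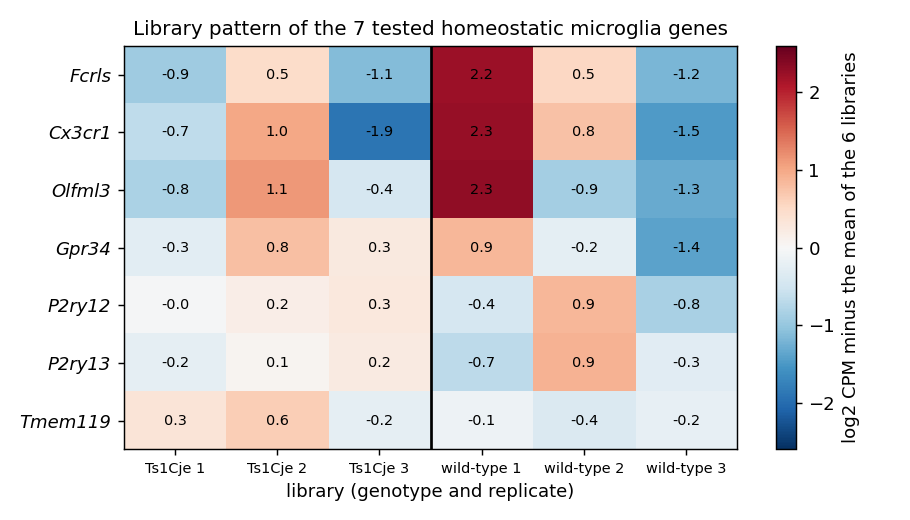
Log2 CPM of the 7 tested genes in each library (columns, Ts1Cje left of wild-type), relative to the gene's mean over the 6 libraries; red is above and blue below. Fcrls, Cx3cr1 and Olfml3 peak in wild-type replicate 1, whereas P2ry12 and P2ry13 peak in wild-type replicate 2.

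The genes fell along different orders of the libraries. Fcrls and Cx3cr1 had the same 3 libraries on top, wild-type replicates 1 and 2 and Ts1Cje replicate 2, with a Pearson r of 0.97 on log2 CPM over the 6 libraries. For P2ry12 and P2ry13 r was 0.88, and for P2ry12 with Cx3cr1 it was 0.13. These are descriptions over 6 libraries that share the same scaling. Among 10794 other genes the 3 most like Fcrls were Rrm2b, Syt11 and Mettl6 (r of 0.99 or more). Those most like Cx3cr1 were Cracr2a, Rexo5 and Srsf11. Those most like P2ry12 were Nampt, Ghitm and Rcbtb1 (r of 0.97 or more), and those most like P2ry13 were Lekr1, Wars and Gspt2 (r of 0.98 or more). P2ry12 and P2ry13 were thus each more like these genes than like each other. The genes most like Gpr34 were Pkdcc, Mfsd3 and Spns1, and those most like Olfml3 were Gsto2, Ttf1 and Cyth1.

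**Figure D5:**
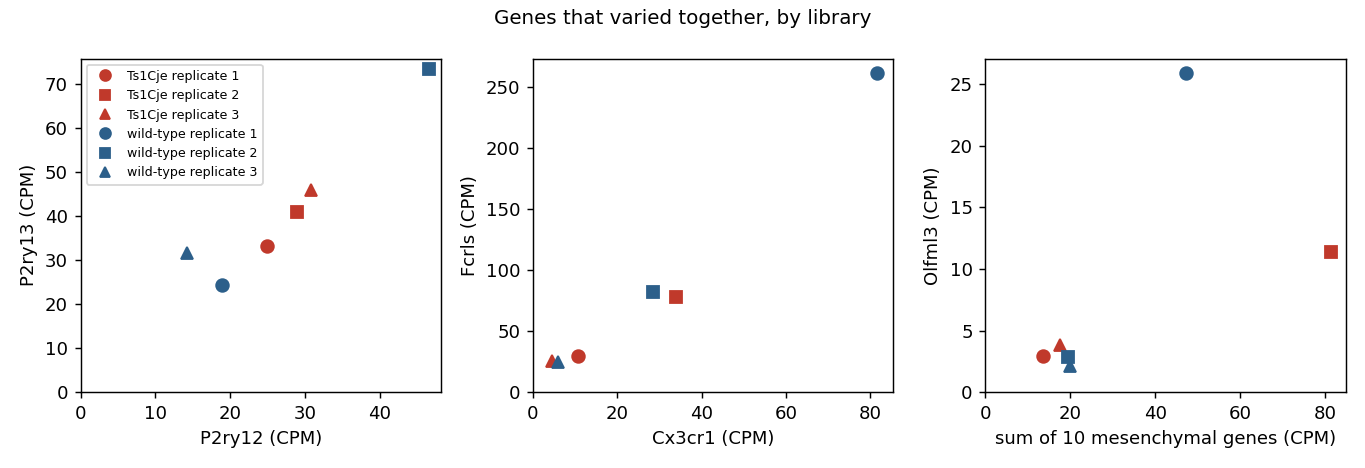
CPM per library of P2ry13 against P2ry12 (left), Fcrls against Cx3cr1 (middle) and Olfml3 against the summed CPM of 10 mesenchymal markers (right), Ts1Cje in red, wild-type in blue, marker shape by replicate. In the left panel wild-type replicate 2 is highest on both axes, at 46.5 and 73.5 CPM; in the right panel wild-type replicate 1 and Ts1Cje replicate 2 are highest on both axes.

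Other genes enriched in microglia also gave no call. Of 33 such genes all 33 were tested, giving 12 positive and 21 negative values, a median log2 fold change of -0.19 and 0 past the adjusted threshold by edgeR or DESeq2. The median was -0.05 without wild-type replicate 1. At an unadjusted p under 0.05 there were 5, 1 positive and 4 negative, beside 5.79% of all genes. Tgfbr1, a receptor chain for TGF-beta, had -0.43 ± 0.16, C1qa, a chain of complement C1q, -1.60 ± 0.55 and Itgb5, an integrin chain, 0.45 ± 0.19 (log2 fold change, SE; adjusted p = 0.792 each, edgeR). Without wild-type replicate 2 C1qa was at -0.96 and Itgb5 at 0.29. Csf1r was at 1113 ± 24.6 CPM in Ts1Cje and 1675 ± 695 CPM in wild-type (SD, n = 3 each).

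The factors and signals that shape microglia gave the following values. Of 16 transcription factors all 16 were tested, giving 4 positive and 12 negative values and a median of -0.21. Leaving out wild-type replicate 3 gave a median of -0.40, leaving out Ts1Cje replicate 2 gave -0.33, and a count minimum of 50 gave -0.46. There were 5 negative and 0 positive values at an unadjusted p under 0.05, beside 5.79% of all genes in either direction, and 0 passed edgeR or DESeq2. Spi1 was at 229 ± 1.53 CPM in Ts1Cje and 204 ± 37.6 CPM in wild-type (SD, n = 3 each). Smad3, which carries TGF-beta signals, was at 8.53 ± 3.14 CPM in Ts1Cje and 14.6 ± 2.36 CPM in wild-type. Every Ts1Cje library lay below every wild-type library for Smad3, as for 5.72% of all genes tested. Its log2 fold change was -0.78 ± 0.31 (SE; unadjusted p = 0.0363, adjusted p = 0.792, edgeR). Egr1 and Fos, which respond within minutes to stimulation, had -1.99 ± 0.61 and -1.10 ± 0.45 (log2 fold change, SE; adjusted p = 0.792 each, edgeR), with wild-type replicate 3 inside the range of the Ts1Cje libraries for both. Of 15 genes of TGF-beta signalling 14 were in the table under the listed symbol and 11 were tested, of which 9 were negative (median -0.14, and -0.23 without wild-type replicate 2 or 3) and 0 passed.

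Tgfb1, a ligand of that pathway, was at 21.3 ± 2.51 CPM in Ts1Cje and 21.2 ± 3.43 CPM in wild-type. Csf1, which encodes M-CSF, was at 27.0 ± 7.60 CPM in Ts1Cje and 40.9 ± 14.8 CPM in wild-type, and Il34, the other ligand of the M-CSF receptor, had 0 counts in 6 of 6 libraries.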

How the data were processed

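RNA of 6 cultures was sequenced after SMART-seq HT Plus library preparation, per the labels' protocols. Tools given in the submitters' processing notes are FastQC 0.11.7, Trimmomatic 0.38, HISAT2 2.1.0, featureCounts 1.6.3 and mm10; the strand setting of the counting was not given in the sources used here. Raw counts per gene and TPM were deposited by the authors; for the 10 genes the deposited TPM were counts over the exon length of GENCODE M21, rescaled within each library. Of the table's 55487 gene identifiers 55141 were found in GENCODE M21.

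Counts were tested with edgeR 4.0.16 in R 4.3.3: filterByExpr (count minimum 10, total minimum 15), TMM factors, quasi-likelihood test with genotype alone, Benjamini-Hochberg over 13821 genes, threshold 0.05. The SE is the log2 fold change over the root of F; intervals are 95%. Log2 CPM use a prior count of 2. DESeq2 1.42.0, limma 3.58.1, other scalings and filters, a block for lot number, and leaving out each library, were alternatives. Tests were also run on simulated data. All 10 genes are named; from each other list up to 4 tested genes with the smallest p, and Csf1r, Spi1, Cx3cl1, Csf1, Il34, Tgfb1, Tgfbr1, Sall4, Slc2a1, Tyrobp, P2ry6, Ccr2 and Mki67 in every case. Some genes that this rule would name are not reported here. Likeness is Pearson's r over genes whose average log2 CPM exceeded 1. The genes and lists were chosen with earlier results of these data known. PCR copies are not independent molecules, so limits drawn from counts cover counting error only.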

Additional observations from a re-analysis of the deposited data

How the results depend on the processing

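Across 16 other settings 0 of the 10 genes passed the threshold, with 6 to 9 of them tested in each. The count of all genes called was 1, and it was 3 without the low-count filter, 44 with DESeq2, 0 with the replicate block and 1 to 6 with each library left out (6 without wild-type replicate 3). Of the genes in the other lists 0 were called, 2 by DESeq2 (Cd33 and Timd4) and 0 in every fit with a library left out. The median of the tested homeostatic genes was -0.61 to 0.09 with each library left out (7 or 8 genes tested). It was 0.10 with the replicate block (7 tested) and -0.45 with a count minimum of 50 (6 tested). Filters were applied anew in each fit, so the genes behind a median, also in the other lists, can differ between settings. The lot numbers were not taken as pairs. For deviations from the genotype mean, same-numbered lots gave r = -0.294, -0.0441 and -0.173 over 10795 genes. With 3 libraries per genotype these values cannot decide whether the lots were paired. The block moved the genes at an unadjusted p under 0.05 from 800 to 634.

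Of 34 named genes 10 changed sign in at least 1 setting, and the cause was not tested. P2ry13 was 0.031 with limma-voom, 0.035 on log2(TPM + 1) with or without a TPM minimum, 0.039 on log2(TPM + 0.1) and 0.050 with the replicate block. Olfml3 was 0.10 with the replicate block. Tgfb1 was -7.35e-05 with RLE factors, -0.028 with upper-quartile factors and -0.0064 with the stricter filter. With each library left out the ranges were -0.21 to 0.76 for P2ry12, -0.40 to 0.50 for P2ry13, -0.093 to 1.02 for Gpr34, -1.59 to 1.28 for Olfml3, -0.11 to 0.13 for Tgfb1, -0.28 to 0.17 for Tyrobp, -0.034 to 0.17 for P2ry6, -0.27 to 0.69 for Mki67, -0.91 to 0.39 for Fcrl1 and -0.77 to 1.47 for Col1a1. At an unadjusted p under 0.05 stood Fcrls without the filter (-1.46) and without wild-type replicate 3 (-1.95), Gpr34 without wild-type replicate 1 and P2ry12 without wild-type replicate 2. Over all genes, 1363 of 24506 were under 0.05 without the filter and 2347 of 14620 without wild-type replicate 3. There were 688 of 14387 without wild-type replicate 1 and 540 of 14519 without wild-type replicate 2. With 3 libraries a genotype and this spread, the intervals of Cx3cr1, Olfml3 and Fcrls leave changes of several-fold undetectable.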

Other observations

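Genes of other macrophage states were also measured in these cultures. Of 17 genes that activated microglia raise all 17 were tested, giving 7 positive and 10 negative log2 fold changes with median -0.04, and 0 passed edgeR or DESeq2, beside 0.00724% of all genes for edgeR. Apoe, a lipid carrier, was at 2515 ± 822 CPM in Ts1Cje and 9651 ± 7837 CPM in wild-type (SD, n = 3 each), with a log2 fold change of -1.94 ± 0.68 (SE; adjusted p = 0.792, edgeR; -1.16 without wild-type replicate 1) and wild-type replicate 3 inside the range of the Ts1Cje libraries. Of 15 genes of border and tissue macrophages 12 were tested and 3 stayed under 1 CPM in every library, 2 of them at 0. The tested genes gave 7 positive and 5 negative values with median 0.18, and 0 passed edgeR. DESeq2 called 1 of them, beside 0.268% of all genes. This was Timd4, a receptor for dying cells (adjusted p = 0.00133), at 7.37 ± 4.30 CPM in Ts1Cje and 1.08 ± 0.498 CPM in wild-type (SD, n = 3 each). Mrc1, a mannose receptor, was at 1672 ± 185 CPM in Ts1Cje and 1323 ± 153 CPM in wild-type (SD, n = 3 each). The lowest Ts1Cje library was above the highest wild-type one for Mrc1, as for 6.37% of all genes tested. Its log2 fold change was 0.34 ± 0.18 (SE; adjusted p = 0.792, edgeR).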
